A study of Mus musculus with 12 samples.

Results

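Chromatin accessibility was examined at 9 mouse genes that direct or restrain neuronal fate: Neurog2, Neurod1, Pou3f2, Myt1l, Sox2, Pax6, Zic1, Sox11 and Rest. Peaks were chosen by position alone, as those that overlapped the body of one of these genes or the 25 kb on either side of it (GENCODE M21, mm10). This gave 89 of 176680 peaks, between 6 and 20 per gene. All 89 are windows of 201 bases, so levels can be compared between genes without a correction for length. Distances are given from the 5′ end of a gene to the middle of a window, in the direction of transcription, so a downstream distance includes the gene body.

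The cells were primary mouse embryonic fibroblasts (MEFs) of wild-type C57BL/6N embryos, collected on day 2 of doxycycline and profiled by ATAC-seq, in which the Tn5 transposase cuts open DNA. Every group received lentivirus for rtTA, the activator that doxycycline switches on. MEF carried nothing more, Prox1_OE also carried FLAG-tagged mouse Prox1, 4in1_GFP_OE carried the 4in1 vector (LV.4TF, which drives reprogramming towards induced hepatocytes) with GFP, and 4in1_Prox1_OE carried 4in1 with Prox1. Each of the 4 groups had 3 replicates, and the values below compare 4in1_Prox1_OE with 4in1_GFP_OE, 6 libraries in all, to ask what Prox1 overexpression (Prox1 OE) adds to 4in1. Prox1 is a homeodomain transcription factor of hepatocytes and other lineages. Expression came from viral vectors in a transduced population. The study's reporting summary calls its replicates independent and biological. Whether those of this assay were separate embryos or cultures is not said in the sources. MEF and Prox1_OE were not analysed here.

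Each value is the authors' mean of normalized reads per group, on the log2 scale or turned back to reads. The means carry no spread between replicates, so no difference below was tested, and each is given as a difference of group means. The total depth of each library is unknown here. A shift of all peaks must be kept in mind throughout. The median difference, 4in1_Prox1_OE minus 4in1_GFP_OE, was -0.42 on the log2 scale over all 176680 peaks. In a bulk population, fewer cells with an open site and less opening per cell cannot be told apart.

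Neuronal fate is set by layers of transcription factors. Neurog2 and Neurod1 are basic helix-loop-helix factors that bind E-boxes and start neuronal differentiation. Pou3f2 (Brn2), a POU factor, and Myt1l, a zinc finger repressor of other lineages, are used in the reprogramming of fibroblasts into neurons. Sox2, Pax6 and Zic1 mark neural progenitors, and Sox11 acts in newborn neurons. Rest represses neuronal genes in cells that are not neurons, fibroblasts included, through the RE1 element.

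The windows that the results turn on are printed here from the + strand of GRCm38.p6 (mm10). Capitals mark matches on either strand to the motifs searched: AP-1 (TGAGTCA or TGACTCA), TEAD (GGAATG), E-boxes (CAGATG or CAGCTG), the POU octamer (ATGCAAAT), SOX (CCTTTGT), the left part of the Rest RE1 element (TTCAGCACC), the CTCF core and the Prox1 motif. The first pair of windows hold the largest gain and the largest loss of reads at Myt1l, and the next the RE1 match. Then come upstream Rest windows of unlike behaviour, then the largest gain at Neurod1 and a neighbouring pair at Pax6. The last group are promoter or near-promoter windows, all within 2-fold.
Myt1l coding exon, chr12:29811472-29811672: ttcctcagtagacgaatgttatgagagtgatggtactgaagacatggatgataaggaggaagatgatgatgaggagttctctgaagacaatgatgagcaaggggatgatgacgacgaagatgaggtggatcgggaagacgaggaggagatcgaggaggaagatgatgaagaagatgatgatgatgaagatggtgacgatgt
Myt1l distal intron, chr12:29907212-29907412: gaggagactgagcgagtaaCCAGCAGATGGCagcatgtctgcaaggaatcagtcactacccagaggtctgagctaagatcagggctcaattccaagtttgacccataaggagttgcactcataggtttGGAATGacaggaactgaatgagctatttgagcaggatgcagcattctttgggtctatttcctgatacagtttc
Myt1l 5′ intron, chr12:29530535-29530735: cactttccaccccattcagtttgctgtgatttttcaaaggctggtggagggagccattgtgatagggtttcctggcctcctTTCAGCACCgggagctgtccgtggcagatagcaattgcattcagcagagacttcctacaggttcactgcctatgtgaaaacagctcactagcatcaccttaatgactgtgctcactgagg
Rest upstream A, chr5:77252194-77252394: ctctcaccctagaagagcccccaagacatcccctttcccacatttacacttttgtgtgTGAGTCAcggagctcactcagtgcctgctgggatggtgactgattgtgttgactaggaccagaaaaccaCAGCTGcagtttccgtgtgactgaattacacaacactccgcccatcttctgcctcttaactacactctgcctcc
Rest upstream B, chr5:77252570-77252770: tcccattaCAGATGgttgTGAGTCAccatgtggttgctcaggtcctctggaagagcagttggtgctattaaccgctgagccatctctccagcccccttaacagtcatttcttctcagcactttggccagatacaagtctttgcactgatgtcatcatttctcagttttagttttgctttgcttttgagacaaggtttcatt
Rest upstream C, chr5:77255442-77255642: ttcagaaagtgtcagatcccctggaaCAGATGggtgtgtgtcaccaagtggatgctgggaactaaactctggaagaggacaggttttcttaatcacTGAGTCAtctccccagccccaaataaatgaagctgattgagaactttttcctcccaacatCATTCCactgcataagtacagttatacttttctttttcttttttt
Neurod1 upstream, chr2:79459129-79459329: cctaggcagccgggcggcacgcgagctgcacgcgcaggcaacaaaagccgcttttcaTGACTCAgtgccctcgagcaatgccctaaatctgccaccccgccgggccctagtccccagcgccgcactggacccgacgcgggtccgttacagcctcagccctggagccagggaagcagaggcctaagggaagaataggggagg
Pax6 upstream A, chr2:105666735-105666935: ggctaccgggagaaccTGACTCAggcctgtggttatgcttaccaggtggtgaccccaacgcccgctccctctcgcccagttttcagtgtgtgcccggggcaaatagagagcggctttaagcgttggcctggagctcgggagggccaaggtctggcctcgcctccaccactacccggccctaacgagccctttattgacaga
Pax6 upstream B, chr2:105667568-105667768: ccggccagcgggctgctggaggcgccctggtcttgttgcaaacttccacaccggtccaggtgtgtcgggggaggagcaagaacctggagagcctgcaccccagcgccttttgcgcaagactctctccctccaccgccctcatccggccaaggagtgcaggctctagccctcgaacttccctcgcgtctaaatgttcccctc
Sox2 promoter, chr3:34649805-34650005: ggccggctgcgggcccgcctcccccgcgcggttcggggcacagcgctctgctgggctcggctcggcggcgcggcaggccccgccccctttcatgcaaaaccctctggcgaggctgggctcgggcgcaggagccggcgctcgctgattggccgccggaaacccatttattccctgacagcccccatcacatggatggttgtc
Sox11 promoter, chr12:27342712-27342912: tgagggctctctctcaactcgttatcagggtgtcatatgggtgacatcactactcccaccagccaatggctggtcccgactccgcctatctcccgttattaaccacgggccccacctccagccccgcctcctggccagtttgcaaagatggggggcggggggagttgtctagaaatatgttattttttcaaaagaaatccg
Neurog2 coding exon, chr3:127634184-127634384: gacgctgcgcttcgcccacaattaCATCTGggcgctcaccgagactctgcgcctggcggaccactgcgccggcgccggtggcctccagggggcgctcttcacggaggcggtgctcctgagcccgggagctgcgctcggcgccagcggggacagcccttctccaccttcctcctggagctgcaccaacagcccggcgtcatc

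Smaller shares of the windows at the neural regulator loci than of all peaks were past 2-fold in either direction, and their differences of group means lay higher as a whole. Their median difference was -0.05, with quartiles of -0.40 and 0.29, against -0.42 for all peaks, with quartiles of -0.99 and 0.07. At 10 of the 89 windows the mean was at least 2-fold lower with Prox1, a share of 11.2% beside 24.4% of all peaks. At 4 windows it was at least 2-fold higher, 4.49% beside 8.33%. Without the weakest 25% of all peaks, 1 of 71 windows was higher. Of the 89, 68 lay above the median difference of all peaks. When that median was subtracted from every peak, 3 windows were 2-fold lower (3.37%, background 8.64%) and 8 were 2-fold higher (8.99%, background 13.4%). The sign of the members' median near 0 therefore depends on where 0 is set, while both shares past 2-fold were below the background under either choice.

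**Figure D1:**
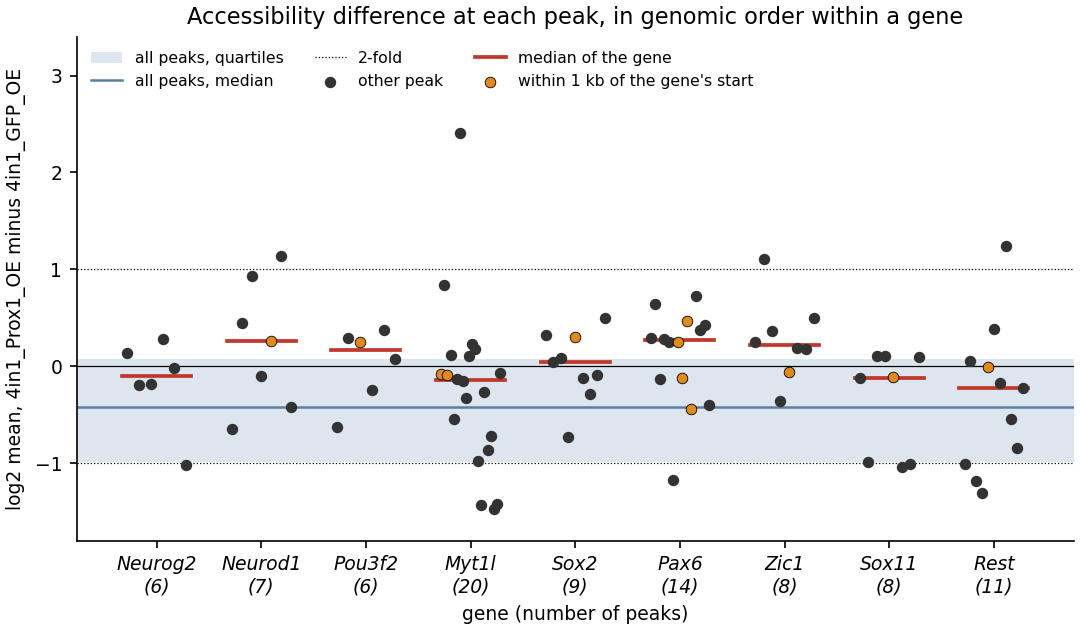
Difference of the log2 group means (vertical axis, 4in1_Prox1_OE minus 4in1_GFP_OE) at each of the 89 peaks, by gene, with peaks in genomic order. Red lines are gene medians, orange points lie within 1 kb of a start site of the gene, the band and blue line are the quartiles and median of all peaks, and dotted lines are 2-fold. All 9 gene medians, from -0.23 at Rest to 0.27 at Pax6, lie above the median of all peaks at -0.42.

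The windows past 2-fold were all distal, meaning more than 1 kb from any annotated start site. So were most such peaks of the whole table, 41251 of 43086 lower and 14022 of 14723 higher. Promoter windows of any gene made up 29 of the 89 (32.6%, against 12.6% of all peaks). Of these, 11 lay nearest to a start site of the member gene itself and 18 nearest to that of another gene. None of these 29 was 2-fold lower, beside 8.26% of all promoter peaks, and none was 2-fold higher, beside 3.16%. Their median difference was -0.005, and that of all promoter peaks -0.21. Among the 60 distal windows 10 were lower (background 26.7%) and 4 were higher (background 9.08%), with a median of -0.12 against -0.49 for all distal peaks. Introns held 32 windows, coding exons 11, UTR exons 8, exons of noncoding genes 9 and intergenic sequence 29. Of the 10 lower windows 8 were intergenic and 2 intronic. Shares by place were not computed over all peaks, so these counts have no background beside them.

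Promoters of these regulators were open in both groups. A peak within 1 kb of a start site of its gene was found for 8 of the 9 genes, Neurog2 being the exception. In 4in1_GFP_OE the mean was 591 reads at Rest and 586 at Sox11, then 400 at Pax6, 372 at Sox2, 201 at Pou3f2, 125 at Neurod1, 104 at Zic1 and 77.2 at Myt1l. The corresponding means in 4in1_Prox1_OE were 589, 542, 294, 458, 240, 151, 99.8 and 72.8 reads. The repressor Rest and the SoxC factor Sox11 thus stood highest, and the neuronal factor Myt1l lowest. Ranked by the mean of both groups, Rest lay at percentile 80.5 of all promoter peaks and Myt1l at percentile 12.7. The order changed with Prox1 only where Sox2 passed Pax6. The promoter differences ran from -0.44 at Pax6 to 0.30 at Sox2, with Neurod1 and Pou3f2 both at 0.26 and the other 4 between -0.11 and -0.005. Only Pax6 lay below the median of all peaks, by 0.02, and its window sits at an internal start site 7.43 kb from the 5′ end. Pax6 has 4 promoter windows, at 0.25, -0.12, 0.47 and -0.44, and their mean was 0.039, so its sign turns with the window read. That of Pou3f2 turns too, to -0.25, when the strongest window within 2 kb of a start site is taken.

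**Figure D2:**
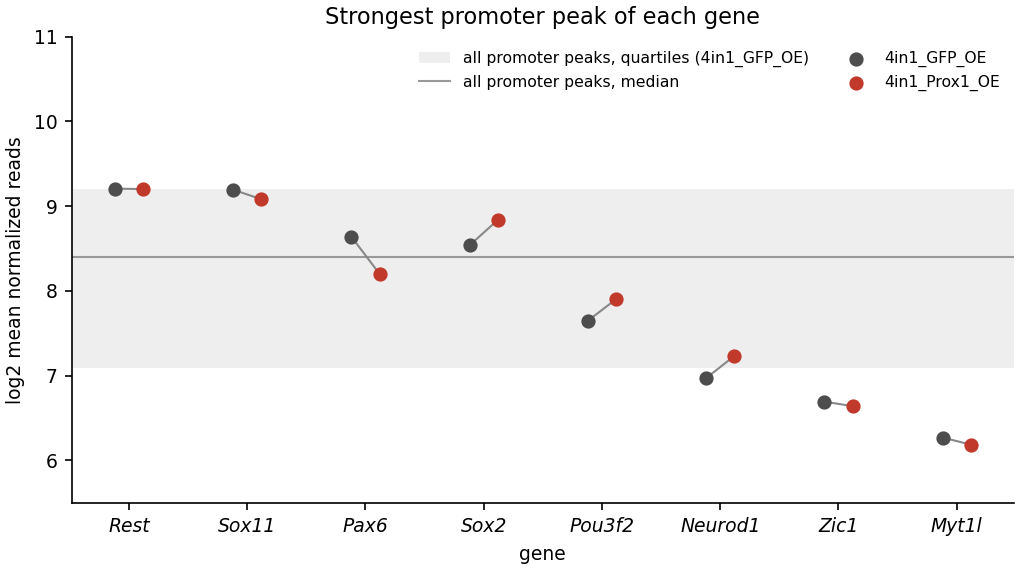
Log2 mean normalized reads (vertical axis) at the strongest promoter peak of each gene, ordered by level in 4in1_GFP_OE (grey) and joined to 4in1_Prox1_OE (red). The band and line are the quartiles and median of all promoter peaks in 4in1_GFP_OE. Rest and Sox11 stand near the upper quartile, and Neurod1, Zic1 and Myt1l below the lower one in 4in1_GFP_OE.

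At Neurog2 (chr3:127633135-127635631, + strand), a proneural gene of the cortex and spinal cord, 6 windows were found. The nearest to its start lay 1149 bases from the 5′ end, in the coding exon printed above. It had 364 reads in 4in1_GFP_OE and 321 in 4in1_Prox1_OE, a difference of -0.18. The strongest window, 7.69 kb upstream, had 376 and 412 reads (0.13). Only the window 19.5 kb downstream passed 2-fold (background 24.4% lower and 8.33% higher), with 169 reads against 83.4 (-1.02). This window also had the lowest G and C content of the locus, 44.8%.

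Neurod1 (chr2:79452521-79456751, - strand), which acts after the proneural genes, had 7 windows with a median difference of 0.26. Its promoter had 125 reads in 4in1_GFP_OE and 151 in 4in1_Prox1_OE. The window 2.48 kb upstream, in an exon of the noncoding gene Gm26755, had 62.6 reads in 4in1_GFP_OE and 137 in 4in1_Prox1_OE, a difference of 1.13. It holds an AP-1 match and is the only AP-1 window of the 9 loci that was 2-fold higher. A further gain, 0.94, lay 12.2 kb downstream in an intron of the neighbouring gene Cerkl and stayed inside 2-fold. The lowest value, -0.64, was at a coding exon of Cerkl, in a window that covers a start site of that gene.

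Pou3f2 (chr4:22482780-22488366, - strand) had 6 windows, between -0.63 and 0.37. None was past 2-fold, beside 24.4% lower and 8.33% higher among all peaks. The promoter had 201 reads in 4in1_GFP_OE and 240 in 4in1_Prox1_OE, and the strongest other window, 1.15 kb upstream, 274 and 231. The lowest value came from a window 11.2 kb downstream with TEAD and E-box matches, 288 reads against 186.

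Myt1l (chr12:29528384-29923213, + strand) is the longest of the genes at 395 kb and had 20 windows, 4.50 per 100 kb of its region, the lowest density of the 9 loci and below the 6.48 of the whole genome. The other 8 loci ran from 10.8 at Pou3f2 to 17.8 at Pax6. No window fell in the 141 kb that follow the one at 6.47 kb from the 5′ end. The windows are described in 2 stretches. At its 3′ end, 9 windows lay nearer to the start site of Pxdn, an extracellular matrix peroxidase gene, than to any other start site. Of these 9, 8 were below 0 (background 72.3% of all peaks), with a median of -0.87. At 3 the mean was 2-fold lower (background 24.4%, and 26.7% of distal peaks). Their summed reads were 2485 in 4in1_GFP_OE and 1445 in 4in1_Prox1_OE. The other 11 windows had a median of -0.08, none was 2-fold lower, and their summed reads were 1009 and 1067. All 3 lower windows of Myt1l belong to the stretch nearest to Pxdn, where 3 of 9 is not far from the background.

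The strongest of those 3 lay in an intron 379 kb from the 5′ end of Myt1l, with 540 reads in 4in1_GFP_OE and 201 in 4in1_Prox1_OE (-1.43). It holds a TEAD match and an E-box that lies inside a CTCF core match, as printed. The other 2 stood 9.94 and 11.3 kb past the 3′ end of the gene. Both hold AP-1 matches, and they differed by -1.47 (211 against 76.3 reads) and -1.42 (408 against 153 reads). The Pxdn promoter window beside them had 457 and 437 reads, a difference of -0.07.

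Myt1l also held the largest gain of the 89 windows. A coding exon 283 kb from the 5′ end had 10.5 reads in 4in1_GFP_OE, the lowest 4in1_GFP_OE mean of all 89, and 55.8 in 4in1_Prox1_OE, a difference of 2.41. Its sequence holds none of the searched motifs and is rich in gat, gag, gaa and gac triplets, and A and G make up 72.1% of its bases. By the larger of the purine and pyrimidine shares, only the Pou3f2 promoter window was more skewed, at 74.6%. The window in an intron 2.25 kb from the 5′ end, with the only RE1 match among the 89, had 50.5 reads against 90.6 (0.84). RE1 matches of these letters occurred in 0.410% of all windows, whose median difference was -0.22.

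Rest (chr5:77265491-77286432, + strand) had 11 windows and the lowest gene median, -0.23. Its promoter, the strongest of the 8 in 4in1_GFP_OE, had 591 reads in 4in1_GFP_OE and 589 in 4in1_Prox1_OE. Of 4 windows between 9.95 and 19.5 kb before the start, 3 were 2-fold lower (background 26.7% of distal peaks), at 231 against 114 reads, 200 against 87.9 and 118 against 47.7 (-1.01, -1.19 and -1.30). The remaining one had 105 and 109 reads (0.05). It is the window printed as A, and B starts 376 bases further on. Both hold an AP-1 match and an E-box, and their differences were 1.24 apart. Summed over the 4 upstream windows, reads were 654 in 4in1_GFP_OE and 359 in 4in1_Prox1_OE, while the 7 windows at and after the start summed to 1963 and 1656.

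Downstream of Rest, a window 24.4 kb from the 5′ end had 29.8 reads in 4in1_GFP_OE and 70.3 in 4in1_Prox1_OE (1.24), beside one 315 bases away with 40.9 and 36.3 (-0.17). The last 3 windows lay in the neighbouring gene Noa1, the furthest of them at a start site of Noa1. They had 224, 435 and 610 reads in 4in1_GFP_OE and 154, 242 and 521 in 4in1_Prox1_OE, all lower and none past 2-fold. Without Rest, the other 78 windows had a median of 0.01, 7 lower (8.97%, background 24.4%) and 3 higher (3.85%, background 8.33%).

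**Figure D3:**
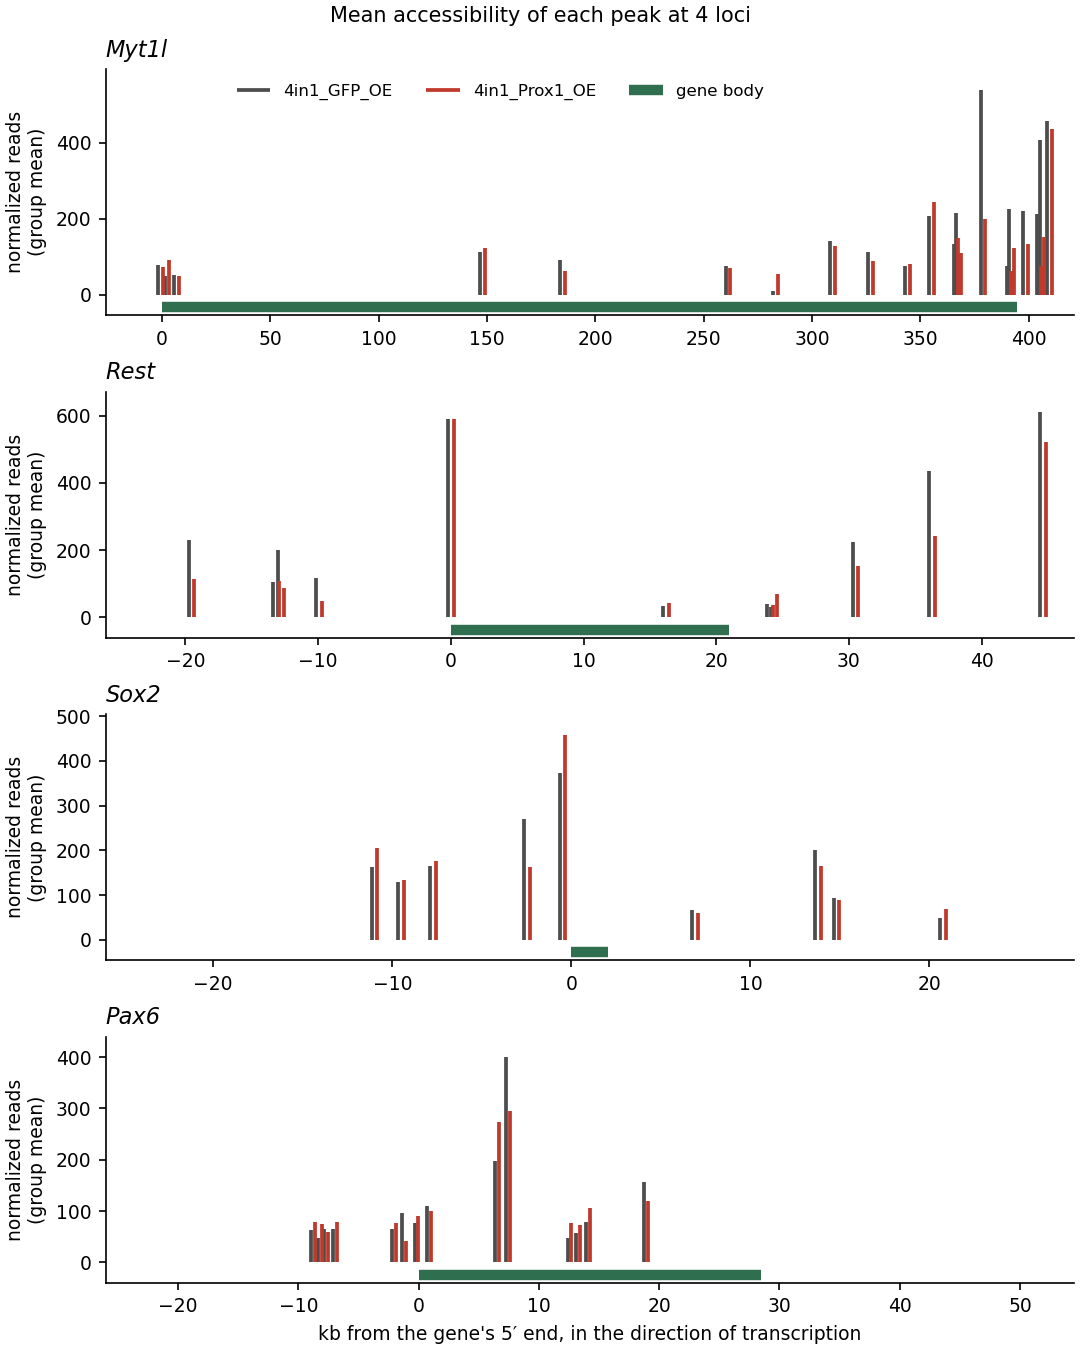
Mean normalized reads (vertical axis) of each peak at Myt1l, Rest, Sox2 and Pax6 against distance in kb from the 5′ end of the gene (horizontal axis), with 4in1_GFP_OE in grey and 4in1_Prox1_OE in red, set slightly apart sideways, and the gene body in green. The grey line is the higher one at most windows of the 3′ end of Myt1l, at 3 of the 4 windows before the start of Rest and in Noa1 downstream of it (435 and 242 reads at one window), and the pair stay close at the Rest promoter (591 and 589 reads).

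Sox2 (chr3:34650405-34652461, + strand), a pluripotency and neural progenitor factor, had 9 windows, all within the span of the noncoding gene Sox2ot or the neighbouring Gm42693. None passed 2-fold (background 24.4% lower and 8.33% higher), and the median was 0.05, beside -0.42 over all peaks. The promoter window printed above had 372 reads in 4in1_GFP_OE and 458 in 4in1_Prox1_OE. The window 2.48 kb upstream went the other way, with 269 against 163 reads (-0.72). It holds a CTCF core match and, at 47.3% G and C, was the least GC-rich of the locus. Summed over the locus, reads were 1509 and 1518.

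Pax6 (chr2:105668900-105697364, + strand), a paired-box factor of eye and brain, had 14 windows and the highest gene median, 0.27. Of these, 5 were below 0 (background 72.3%), and 12 were above the median of all peaks. Past 2-fold there was 1 window (background 24.4% lower and 8.33% higher), 1.23 kb upstream within the antisense gene Pax6os1. It had 95.6 reads in 4in1_GFP_OE and 42.4 in 4in1_Prox1_OE (-1.18). Its neighbour 833 bases further upstream, which holds an AP-1 match, had 64.7 and 76.9 (0.25). ATAC-seq does not separate strands, so windows in Pax6os1 and in the noncoding gene Paupar cannot be assigned to one of the overlapping genes. The largest gain, 0.73, lay in a Pax6 intron.

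Zic1 (chr9:91358058-91365810, - strand), a zinc finger factor of the dorsal neural tube, had 8 windows with a median of 0.22, all of them above the median of all peaks. Past 2-fold there was 1 window (background 24.4% lower and 8.33% higher), 12.8 kb downstream. It had 36.8 reads in 4in1_GFP_OE and 79.5 in 4in1_Prox1_OE (1.11). The 3 upstream windows lay in the adjacent gene Zic4, all above 0, at 0.17 to 0.50. The log2 ratio of summed reads was 0.16 over the locus and -0.24 over the gene body alone.

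Sox11 (chr12:27334264-27342574, - strand) had 8 windows with a median of -0.12. Its promoter window, printed above, was the strongest of the locus at 586 reads in 4in1_GFP_OE and 542 in 4in1_Prox1_OE. At distances of 10.4 and 12.8 kb upstream, 2 of the 8 windows were 2-fold lower (background 24.4%), with 102 against 49.7 reads (-1.04) and 67.0 against 33.4 (-1.005). Another window, 23.5 kb downstream, was just short of 2-fold at -0.99, with 116 against 58.6 reads. Counts at 2-fold are sensitive here, since -1.005, -1.01, -1.02 and -1.04 lay just inside the limit and -0.98 and -0.99 just outside it.

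Summed reads put the loci in a similar order. The log2 ratio of the sums was -0.48 at Myt1l, -0.38 at Rest, -0.20 at Sox11, -0.09 at Neurog2, -0.07 at Pou3f2, 0.009 at Sox2, 0.02 at both Neurod1 and Pax6 and 0.16 at Zic1. Over the 89 windows together it was -0.18, and over all peaks -0.41. With no spread between replicates, neighbours in this order cannot be called different.

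Base composition moved with these differences. The windows of the 9 loci had a median G and C content of 55.7%, and all peaks 48.8%. In the 10% of all peaks richest in G and C the median difference was -0.15, and 36 of the 89 windows fell in it, with a median of 0.15. Windows at or above the median G and C content of all peaks numbered 70, with a median of 0.09 beside -0.25 for all such peaks. The remaining 19 had a median of -0.84 beside -0.68 for all such peaks, and 7 of them were 2-fold lower (36.8%, near the 34.5% of all such peaks). Compared with peaks in the same decile of G and C content and the same decile of mean level, an alternative chosen after the data were seen, 55 of the 89 lay above the reference, by a median of 0.13. The reference itself had a median of -0.20 at the members. The part of base composition in the result was not tested.

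**Figure D4:**
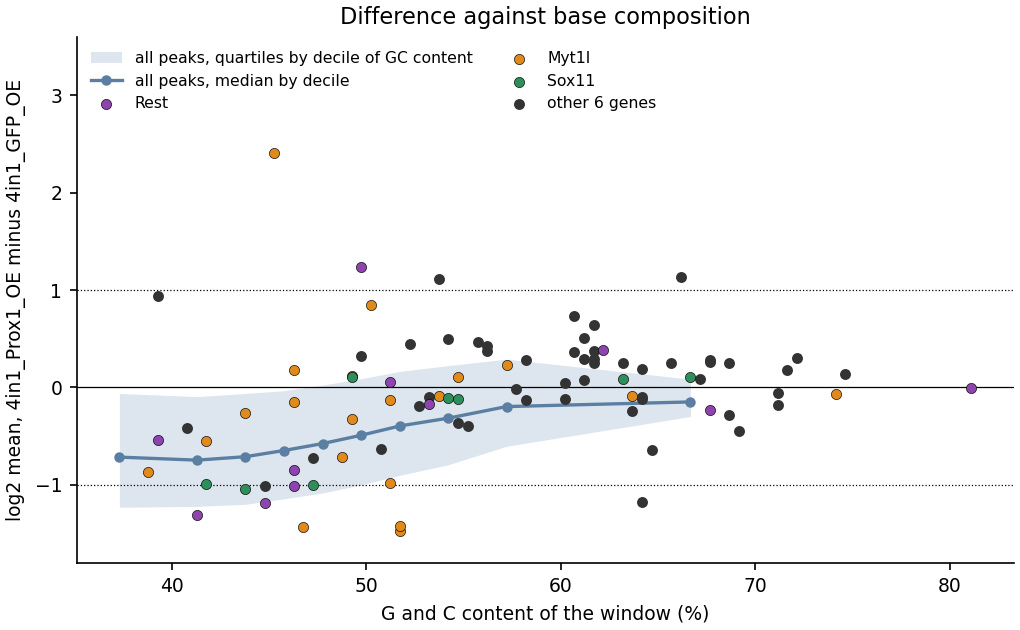
Difference of the log2 group means (vertical axis) against the G and C content of the window in percent (horizontal axis), with the median and quartiles of all peaks by decile of G and C content in blue. Points are the 89 windows, coloured for Rest, Myt1l and Sox11. Most windows rich in G and C lie within 2-fold, and 9 of the 10 windows 2-fold lower lie between 41.3% and 51.7%. The median content of these 10 was 46.5%, near the 45.8% of all 43086 peaks 2-fold lower.

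Motif matches divided the windows in a like way. AP-1 matches, the sites of Jun and Fos dimers, occurred in 11 windows (12.4%, against 23.0% of all). Those 11 had a median of -0.87, close to the -0.84 of all AP-1 windows, and 5 were 2-fold lower (45.5%, beside 40.8% of all AP-1 windows). TEAD matches occurred in 10 (11.2%, against 20.1%), with a median of -0.59 beside -0.64 for all. The 70 windows with neither had a median of 0.08, beside -0.27 for all such peaks. Of the 10 lower windows 7 held an AP-1 or a TEAD match, against 57.3% of all 2-fold lower peaks. E-boxes of the letters CAGATG occurred in 13 windows (14.6%, against 17.8% of all), 7 of them at Rest, and those of the letters CAGCTG in 9 (10.1%, against 15.9%). The POU octamer and the SOX letters were each in 2 windows and the CTCF core in 4. The Prox1 motif was in none of the 89 and in 0.305% of all windows.

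Neighbouring windows often differed. Of the 89, 10 adjacent pairs had centres within 1 kb, 7 at Pax6, 2 at Rest and 1 at Neurod1. The members of a pair lay on opposite sides of 0 in 7, beside 33.8% of 11469 such pairs in the whole table, where 0 lies further from the median. The typical distance between the differences of a pair was 0.84 at these loci and 0.58 over all pairs.

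Other regulators of the lineage were read by the same rules. Of 34 further factors of the neural lineage, which include the oligodendrocyte regulators Olig1 and Olig2, 33 had at least 1 peak by the same rule, 293 peaks in all, of which 8 are also counted among the 89. In this list 31 peaks were 2-fold lower (10.6%, background 24.4%) and 17 were 2-fold higher (5.80%, background 8.33%), with a median of -0.06. Tcf4, a long gene, holds 65 of the 293 peaks, and without it 16 of 228 were lower. Their promoter differences, known for 28 genes, had a median of 0.18, beside -0.03 over the 8 promoters above. None was 2-fold lower (background 8.26%), and 3 were 2-fold higher (10.7%, background 3.16%). These 3 were Nhlh1 (29.7 against 122 reads, 2.04), a helix-loop-helix factor of early neurons, and Olig1 (110 against 258 reads, 1.22) and Olig2 (78.1 against 170 reads, 1.12). The 3 lowest were Sox4 (-0.32), Lhx2 (-0.30) and Atoh1 (-0.19).

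Genes that act with Rest were read in the same way. The 11 corepressor genes, among them Rcor1, Sin3a and Hdac2, had promoter differences between -0.27 and 0.07, none past 2-fold, beside 8.26% lower and 3.16% higher among all promoter peaks. Over their 136 peaks 21 were 2-fold lower (15.4%, background 24.4%) and 8 were 2-fold higher (5.88%, background 8.33%), with a median of -0.19.

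Cell type markers were read for the same groups. All 10 fibroblast markers had a promoter peak, with a median log2 mean of 8.58 in 4in1_GFP_OE and 8.06 in 4in1_Prox1_OE, and 57 of their 156 peaks were 2-fold lower (36.5%, background 24.4%), with a median of -0.77. Of 8 markers of neural cells, Dcx, Elavl3 and Stmn2 had no promoter peak. In this list 28 of 89 peaks were 2-fold lower (31.5%, background 24.4%), with a median of -0.51. Map2 alone held 24 of the peaks and 12 of the lower ones, so the excess over the background rests largely on this gene. Promoter peaks were also present for 3 of 4 endothelial, 2 of 4 blood and macrophage and all 4 epithelial markers, and the medians over the peaks of these lists were -0.49, -0.61 and -0.28. The strongest promoter peaks alone had medians of -0.46 for fibroblast, -0.09 for neural, -0.68 for endothelial, -1.11 for blood and macrophage and 0.43 for epithelial markers. Among them 1 fibroblast, 1 endothelial and 1 blood and macrophage promoter were 2-fold lower (background 8.26%), and 1 epithelial promoter was 2-fold higher (background 3.16%). The part of other cell types in the differences was not tested.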

How the data were processed

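ATAC-seq was performed on 12 libraries, of which the 6 of 4in1_GFP_OE and 4in1_Prox1_OE entered a table of 176680 peaks. As the study's methods state, the authors used Trimmomatic 0.38 for trimming, Bowtie2 2.3.4.3 for alignment to mm10, and SAMtools 1.10, Picard 2.18.16 and bedtools 2.27.1 for filtering and a recalibration for Tn5 bias, and then DiffBind 3.4.11 to compare groups. The peak caller is uncertain (MACS2 2.1.2 in the methods, Genrich in the reporting summary), and for DiffBind the methods refer to the vignette of that version without naming a normalization setting. Whether peaks were called on pooled reads is not given in the sources used here.

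The deposited concentrations are log2 values of mean normalized reads per group. The table also holds the authors' fold change, p-value and adjusted p-value, and 2 further files list their called regions. These were not used. Differences were taken between the 2 concentrations, and a peak was counted as lower or higher past a 2-fold limit, and the share of all peaks past it was computed in the same way. No test could be made from group means, and library depth and the precision it gives are unknown. Weak peaks are the least precise.

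Peaks were assigned by gene body and flank (GENCODE M21) in Python 3.11.15 with pandas 2.3.3 and pysam 0.24.0. A promoter peak lay within 1 kb of a start site. Windows named were, per gene, the strongest promoter peak, the strongest other peak and the lowest and highest differences among peaks with a group mean of at least 5 (log2). All other windows, among them the rest of those past 2-fold, were named after their values were seen. Of a further list of 34 factors the 3 lowest and 3 highest promoters were named. Sequences were read from GRCm38.p6, whose 165 promoter sequences compared were identical between references. The counting was tested on simulated data. The genes, lists and motifs were chosen with earlier results of these data known. Alternatives changed the flank, the assignment, the place of 0, the filter on weak peaks, a pseudocount, the fold limit and the genes included.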

Additional observations from a re-analysis of the deposited data

How the results depend on the processing

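No paired analysis was possible because only means of each group could be used. Leaving out single replicates was not run either. Of the 89 windows, 10 were 2-fold lower, 4 were 2-fold higher and the median difference was -0.053. With the gene bodies alone (31 windows) the counts were 1 and 1. With a flank of 10 kb (67 windows) 4 were lower and the median was 0.049. With 50 kb (117 windows) the counts were 17 and 8 and the median -0.084. Of the 10 lower windows 6 thus lie more than 10 kb outside the gene body, and of the 4 higher ones none. Windows nearest to the gene's own start site gave 6 and 2 of 45 (13.3% and 4.44%). The background for these choices of windows is that of all peaks, 24.4% lower and 8.33% higher. Centring on the median of all peaks gave 3 and 8 (background 8.64% and 13.4%) with a median of 0.36. Equal totals gave 3 and 8 with 0.36, and centring on the strongest 10% of peaks 4 lower with a median of 0.21. Without the weakest 25% of peaks 1 window was higher and the median was -0.093, and 8 added reads left 6 lower. A limit of 1.5-fold gave 18 and 8, and 4-fold gave 0 and 1. Shares of all peaks were not computed for these limits. Nor were they for equal totals, the strongest 10%, the weak-peak filter or the added reads. Whether those counts stay below the background is therefore not known. Leaving out 1 gene moved the median to -0.060 (Neurod1), -0.066 (Pou3f2), 0.051 (Myt1l), -0.060 (Sox2), -0.084 (Pax6), -0.090 (Zic1), -0.021 (Sox11) and 0.014 (Rest), and kept both counts within 1.5 times. Among alternatives chosen after the data were seen, centring within deciles of G and C content and level gave 1 lower and a median of 0.13, and distal windows alone a median of -0.12.

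The median promoter difference over 8 genes was -0.029. It was -0.084 with a 2 kb window, which adds Neurog2, 0.017 as a mean over promoter peaks, 0.39 after centring on the median and 0.38 with equal totals. Promoter differences of Neurod1 and Sox2 were above 0 in all 5 settings. The median log2 ratio of summed reads over genes was -0.074, and it was 0.0088 in gene bodies alone, -0.10 without promoter peaks and 0.34 after centring on the median. The ratio at Myt1l was below 0 in all 4 settings, from -0.49 to -0.059, and at the other 8 loci it changed sign in at least 1 setting, as did the promoter differences of the 6 genes other than Neurod1 and Sox2. Apart from centring and sample construction, the cause of a change was not tested. Depth per library is unknown, and the windows with the lowest means, such as the Myt1l coding exon at 10.5 reads, rest on few reads.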
